A study of Mus musculus with 4 samples.

Results

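The cells described here were macrophages in cycle from MC38 liver metastatic tumours of mice. They were chosen by their counts of UMIs (unique molecular identifiers, each standing for 1 captured RNA molecule). A barcode needed 300 or more detected genes and under 15% mitochondrial UMIs. C1qa, C1qb and C1qc together had to hold 0.5% or more of its UMIs, and Mki67 and Top2a together 3 or more UMIs. Barcodes with 3 or more Jaml UMIs, more than 1 UMI of Cd3d, Cd3e and Cd3g, or more than 3 UMIs of Col3a1 and Dcn were left out. The rule kept 2777 of the 50062 deposited barcodes, and of 23358 macrophages that met every condition but the one on Mki67 and Top2a. There were 916 cycling barcodes of 8304 macrophages in LFD_WT, 348 of 4848 in LFD_shYap, 1020 of 6245 in HFD_WT and 493 of 3961 in HFD_shYap. Values for the 4 libraries follow this order throughout.

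MC38 is a mouse colon carcinoma line, and the hosts were WT mice of the C57BL/6J strain in all 4 libraries, on a low-fat diet (LFD) or a high-fat diet (HFD). The tumour cells were WT-MC38 (WT in the library names) or shYap-MC38 (shYap), a derivative with a knockdown of Yap1, which encodes a transcriptional co-activator of the Hippo pathway. Immune cells from the dissociated tumours were enriched on anti-CD45 magnetic beads and sequenced with 10x Genomics 3′ v3.1 chemistry, with 1 library for each combination of diet and line. The number and age of the mice behind a library, the length of the diets and whether the shYap line is 1 clone are not given in the sources used here. For LFD_shYap the labels conflict, with low-fat in the title but high-fat under treatment, and every diet result rests on the title. Yap1 stood at 20.5, 17.4, 15.7 and 19.3 CPM (UMI counts scaled to 1 common library total) in barcodes with 3 or more UMIs of 10 tumour-line genes and little C1q. With the exact Poisson intervals of 14 to 17.5 CPM in HFD_WT and 16.2 to 22.8 CPM in the library labelled HFD_shYap, it was not lower in the latter. LFD_shYap and HFD_shYap are therefore names of labelled libraries, and each direction between lines rests on the labels.

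Tumour macrophages come from blood monocytes that enter the tissue and from macrophages already resident there, and both can divide in place. The cell cycle runs from the D and E cyclins of G1, through loading of the MCM helicase and copying of DNA in S phase, to cyclin B with Cdk1 and the mitotic machinery in G2 and M. In macrophages the receptor Csf1r carries the main survival and growth signal.

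The summed cycling barcodes held 16672417, 6853201, 20785295 and 12483176 UMIs. Their median depth was 15683, 17770.5, 17910.5 and 22035 UMIs, against 5920, 7757, 8679.5 and 10398 in resting macrophages, defined as the same gates with Mki67 and Top2a at 0. A gate on 3 UMIs favours deep barcodes, and cells in cycle also hold more RNA, which cannot be told apart here. The doublet caller's own threshold marked 0, 0, 3065 and 0 barcodes and was not used. Instead the 1486, 941, 1356 and 604 highest doublet scores were left out as an alternative, which removed 19.1, 7.18, 11.9 and 7.1% of cycling and 9.06, 5.47, 7.62 and 4.72% of resting macrophages. Pairs of libraries shared 33 to 63 barcode sequences, and no shared sequence was cycling in both. HFD_shYap stood apart in holding 2 kinds of barcode. Of its 493 cycling barcodes, 134 had Xist and no Y-linked UMIs, 263 Y-linked UMIs and no Xist, 52 both and 44 neither, while only 1 cycling barcode of the other 3 libraries, in HFD_WT, had Xist.

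The cell type was checked on macrophage genes outside the gate. Csf1r stood at 655, 640.4, 549 and 662 CPM in cycling and 685, 728, 598 and 761 CPM in resting macrophages. Adgre1, which encodes F4/80, stood at 279, 248, 296 and 342 CPM against 293, 256, 309 and 353 CPM, and Cd68, a lysosomal protein, at 528, 529.7, 536 and 479.7 CPM against 549.9, 506, 559.8 and 466 CPM. For these genes the levels of the 2 states lay close together in every library. Of the 14 macrophage identity genes, 10 were called lower in cycling macrophages, as given below. Markers of other cells ranged widely in cycling macrophages. The 5 red cell genes summed to 249.5, 1412, 5.39 and 1.12 CPM, highest in LFD_shYap, and the 7 B and plasma cell genes to 58.3, 55, 117 and 71.7 CPM. The other sums were 74.8, 24.2, 24.3 and 9.29 CPM for 13 T and NK cell genes, 7.98, 3.94, 16.3 and 9.21 CPM for 8 dendritic cell genes, 9.9, 15.3, 11.3 and 6.41 CPM for 8 fibroblast genes and 13.3, 43, 12.1 and 8.49 CPM for 10 tumour-line genes, of which Krt19 and Cldn4 were at 0 in all 4 libraries. The 7 neutrophil genes summed to 227, 196, 247 and 47.7 CPM in cycling and 587, 322, 852 and 142 CPM in resting macrophages.

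Mki67 encodes Ki-67, which coats mitotic chromosomes, and Top2a the topoisomerase that untangles copied DNA. Both lie on the minus strand of GRCm38, Top2a at chr11:98992943-99024189 and Mki67 at chr7:135689784-135716361. The promoters of the gate genes are shown because many G2/M genes are known to carry the cell cycle genes homology region (CHR, TTTGAA) and CCAAT boxes. Hmgb2, a chromatin protein of the G2/M list, and Mcm6, a subunit of the MCM helicase, are shown beside them, the latter for its E2F elements (TTCCCGC or TTGGCGC). Both were picked from well expressed list genes whose promoter holds the motif searched, CHR for Hmgb2 and E2F for Mcm6. Their holding that motif is thus no result. Each window runs from 250 bases before to 50 bases after the RefSeq start (GRCm38.p6), 5′ to 3′ on the gene's strand. Capitals mark CHR and CCAAT matches on either strand in the first 3 sequences, and E2F matches in the last.
Top2a, chr11:99024140-99024439, minus strand: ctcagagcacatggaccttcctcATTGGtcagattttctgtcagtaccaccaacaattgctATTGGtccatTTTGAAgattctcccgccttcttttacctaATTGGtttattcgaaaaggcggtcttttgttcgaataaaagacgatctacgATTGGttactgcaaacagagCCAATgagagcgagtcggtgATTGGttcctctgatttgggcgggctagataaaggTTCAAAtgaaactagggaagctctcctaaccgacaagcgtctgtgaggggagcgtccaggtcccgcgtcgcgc
Mki67, chr7:135716330-135716629, minus strand: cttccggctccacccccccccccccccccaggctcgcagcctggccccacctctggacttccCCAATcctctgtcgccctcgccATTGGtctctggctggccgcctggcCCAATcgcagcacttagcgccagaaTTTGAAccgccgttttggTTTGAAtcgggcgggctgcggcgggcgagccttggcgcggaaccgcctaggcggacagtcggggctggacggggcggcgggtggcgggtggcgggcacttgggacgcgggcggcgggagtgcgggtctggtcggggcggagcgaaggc
Hmgb2, chr8:57511593-57511892, plus strand: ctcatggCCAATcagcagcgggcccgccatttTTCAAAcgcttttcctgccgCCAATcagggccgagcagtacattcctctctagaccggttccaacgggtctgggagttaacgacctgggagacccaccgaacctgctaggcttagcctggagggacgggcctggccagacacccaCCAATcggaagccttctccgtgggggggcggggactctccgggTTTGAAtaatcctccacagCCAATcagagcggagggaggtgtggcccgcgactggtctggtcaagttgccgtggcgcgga
Mcm6, chr1:128359656-128359955, minus strand: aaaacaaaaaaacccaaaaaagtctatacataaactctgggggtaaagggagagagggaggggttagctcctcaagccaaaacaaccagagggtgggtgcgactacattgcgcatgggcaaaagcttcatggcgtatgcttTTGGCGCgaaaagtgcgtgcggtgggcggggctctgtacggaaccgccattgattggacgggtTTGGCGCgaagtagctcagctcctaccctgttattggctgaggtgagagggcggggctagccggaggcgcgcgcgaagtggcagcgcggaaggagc
The Top2a window held 2 CHR and 6 CCAAT matches, the Mki67 window 2 and 3, and the Hmgb2 window 2 and 4. The Mcm6 window held 2 E2F matches and no CHR. Left in lower case were 2 CCAAT matches of the Mcm6 window and 1 E2F match of the Mki67 window. Of a list of 41 G2/M genes, 36 had 40 promoters in the RefSeq table. A CHR was in 67.5% of these, against 17.9% of all 32851 promoters of this length, and CHR together with CCAAT in 50%, against 6.95%. Of 35 S phase genes, 24 had 26 promoters. A CHR was in 15.4% of these, and an E2F element in 50%, against 6.81% of all promoters. A CCAAT box did not separate the lists. It was in 67.5% of the G2/M and 69.2% of the S phase promoters, against 37.4% of all promoters. Such matches are letters in a window and not measured binding.

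The values that chose the members are a description. Mki67 stood at 237, 334, 295 and 246 CPM and Top2a at 413, 426, 421 and 389 CPM in cycling barcodes, and both were at 0 in resting ones by definition. The median barcode held 10, 11, 11 and 12 UMIs of the pair and the highest 72, 78, 71 and 77. Just inside the threshold, at 3 UMIs, lay 126, 57, 160 and 63 barcodes, and just outside it, at 2 UMIs, 288, 166, 302 and 162. C1qa, a chain of complement C1q encoded at chr4:136895917-136898803, stood at 6195, 7203, 6171 and 5692 CPM in cycling and 6605, 7582, 6687 and 5462 CPM in resting macrophages.

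Cycling barcodes were the largest share of macrophages in HFD_WT and the smallest in LFD_shYap. Their share was 16.3% in HFD_WT (15.4 to 17.3), 12.4% in HFD_shYap (11.4 to 13.5), 11% in LFD_WT (10.4 to 11.7) and 7.18% in LFD_shYap (6.47 to 7.94), with exact Clopper-Pearson 95% intervals. For each line the high-fat library held more. HFD_WT differed from LFD_WT by 5.30 points (4.17 to 6.45) and HFD_shYap from LFD_shYap by 5.27 points (4.02 to 6.54), with Newcombe 95% intervals. For each diet the library labelled shYap held less. LFD_shYap differed from LFD_WT by -3.85 points (-4.83 to -2.85) and HFD_shYap from HFD_WT by -3.89 points (-5.25 to -2.5). No test between diets or lines was run on the shares, and the intervals cover counting error only.

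Depth differed between the libraries, so each macrophage was also thinned to 5000 UMIs and called at 2 or more UMIs of the pair. Thinning left out 36.8, 25, 21.7 and 14.8% of macrophages as shallower. The share was then 15.8% in HFD_WT (14.8 to 16.9), 13.7% in LFD_WT (12.8 to 14.7), 10.3% in HFD_shYap (9.27 to 11.4) and 7.59% in LFD_shYap (6.75 to 8.5). The order of LFD_WT and HFD_shYap switched, while the 4 differences kept their sign. High-fat minus low-fat was 2.08 points (0.69 to 3.46) with WT and 2.68 points (1.35 to 4.03) with shYap tumours. The library labelled shYap minus WT was -6.15 points (-7.41 to -4.87) on the low-fat and -5.55 points (-6.98 to -4.08) on the high-fat diet. Without every barcode that had a UMI of a T and NK, B, neutrophil, tumour-line, fibroblast or endothelial list, 2549, 1206, 850 and 864 macrophages remained. Among them the shares were 6.63, 4.73, 8.94 and 6.13%. High-fat minus low-fat with shYap tumours was then 1.41 points (-0.55 to 3.5). Deeper barcodes have more chances to hold such a UMI, and the part of depth in these lower shares was not tested. As a background, barcodes rich in the neutrophil genes S100a8 and S100a9 and poor in C1q had 3 or more UMIs of the pair in 0.377, 3.59, 1.68 and 0.531% of 265, 334, 832 and 377 barcodes, at median depths of 1888, 2157, 2125 and 2279 UMIs.

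**Figure D1:**
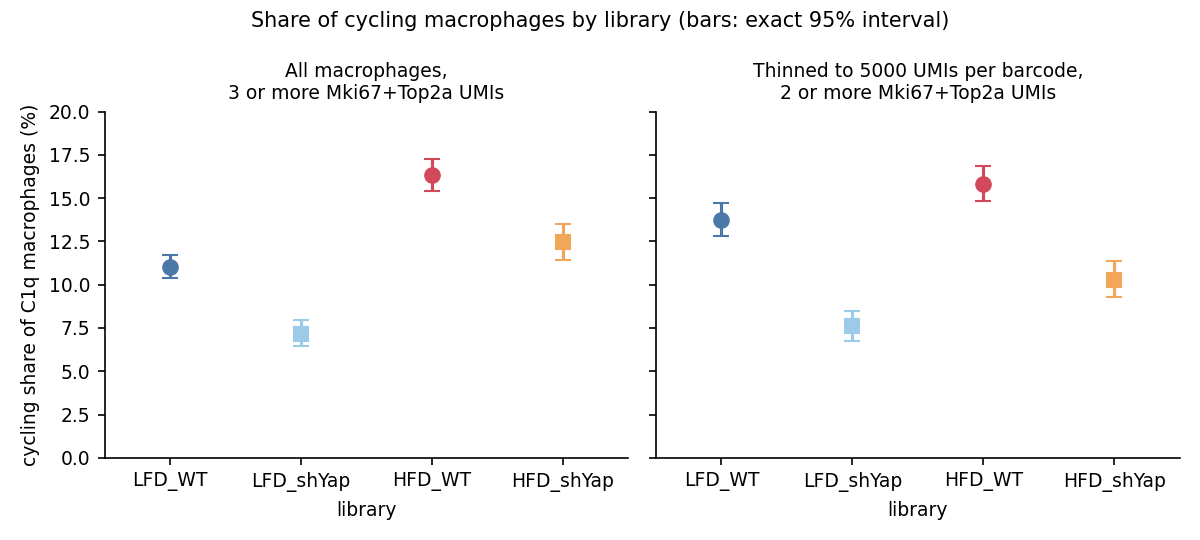
Cycling share of C1q macrophages (y axis, percent) in the 4 libraries (x axis), as deposited with 3 or more Mki67 and Top2a UMIs (left) and thinned to 5000 UMIs with 2 or more (right). Points are shares and bars exact 95% intervals. HFD_WT was highest and LFD_shYap lowest in both panels.

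Within HFD_shYap, the thinned share was 11.3% of 1023 macrophages with Xist only (9.46 to 13.4) and 9.63% of 1163 with Y-linked UMIs only (8.0 to 11.5). The intervals overlapped, so that no difference between the kinds of barcode was detectable at this depth.

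Cell cycle genes other than the pair are described by role without a test, because the gate selects on the cycle. Fold changes are log2 values of cycling over resting macrophages from edgeR with the library as a block. For scale, 40.0% of all 13132 genes fitted were called at an adjusted p under 0.05, 2565 higher and 2686 lower, with a median of -0.03 over all genes. Scaling by total UMIs moved that median to 0.06 and the split to 3637 higher and 1484 lower. A higher CPM in all 4 libraries was seen for 35.1% of genes. All 15 replication licensing genes and all 18 DNA and nucleotide synthesis genes were higher in all 4, with medians of 1.76 and 2.04. Mcm6 stood at 80.3, 73.3, 79.7 and 92.1 CPM in cycling and 30.5, 19.8, 28.8 and 26 CPM in resting macrophages. Rrm2, a subunit of ribonucleotide reductase, which makes the building blocks of DNA, stood at 66.6, 59, 61.2 and 74.8 CPM against 3.87, 2.11, 2.93 and 2.9 CPM. The 2 states did not overlap for either gene.

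The mitotic lists stood further apart. All 11 G2/M cyclin and Cdk1 genes, 14 mitotic kinase and checkpoint genes and 23 kinesin, centromere and cytokinesis genes were higher in all 4 libraries, with medians of 3.18, 3.89 and 4.11. Ccnb1, cyclin B1, stood at 71.1, 87, 53.4 and 56.2 CPM in cycling and 3.13, 2.34, 2.85 and 1.75 CPM in resting macrophages. Cdk1, its kinase, stood at 174, 167, 151 and 148 CPM against 18.1, 13.5, 17.7 and 14.7 CPM. Aurkb, the kinase of the chromosomal passenger complex, stood at 58.7, 61.6, 51.4 and 52.4 CPM against 4.39, 2.57, 3.15 and 2.63 CPM. Resting values were a small part of cycling ones in each library. Within the kinesin list the fold change ran from 1.02 for Cenpa, the centromeric histone, to 5.28 for Nusap1, a spindle protein. All 17 chromatin and histone genes were higher too, from 0.78 to 5.65, the top value being that of the linker histone gene Hist1h1b.

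The G1 end was flatter. Ccnd1, Ccnd2 and Ccnd3, the D cyclins that answer to growth factors, had log2 fold changes of 0.10, -0.14 and 0.14. Ccnd1 stood at 180.4, 142, 191 and 193 CPM in cycling and 170.3, 122, 169.8 and 153 CPM in resting macrophages. Ccne2, an E cyclin that opens S phase, stood at 19.3, 16.6, 17.6 and 25.6 CPM against 2.22, 1.32, 1.67 and 1.79 CPM, a log2 fold change of 3.37. Thus the E cyclin differed between the states in each library by more than the D cyclins did. Of the transcription factors, Mybl2, a B-Myb factor of G2/M genes, had a log2 fold change of 3.96 and E2f1 one of 1.13. Myc, a growth regulator, stood at 14.2, 16.3, 14.7 and 15.2 CPM against 12.2, 11.7, 17 and 21.1 CPM, and the states overlapped.

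Inhibitors of the cycle did not move one way. Cdkn2c, an INK4 inhibitor of the D cyclin kinases, stood at 72.8, 73, 53.4 and 63.6 CPM in cycling and 13.9, 18.4, 11.9 and 13.1 CPM in resting macrophages, a log2 fold change of 2.11. Cdkn2d, of the same family, had one of 1.76 and Rbl1, the p107 pocket protein, one of 1.83. Cdkn1a, the p21 inhibitor, stood at 372, 313, 437 and 358 CPM against 375, 350.4, 484 and 474 CPM and was lower in each library. Pttg1, securin, stood at 48.2, 39.4, 41 and 35.5 CPM against 49.9, 36.2, 45.2 and 37.2 CPM and overlapped between the states.

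**Figure D2:**
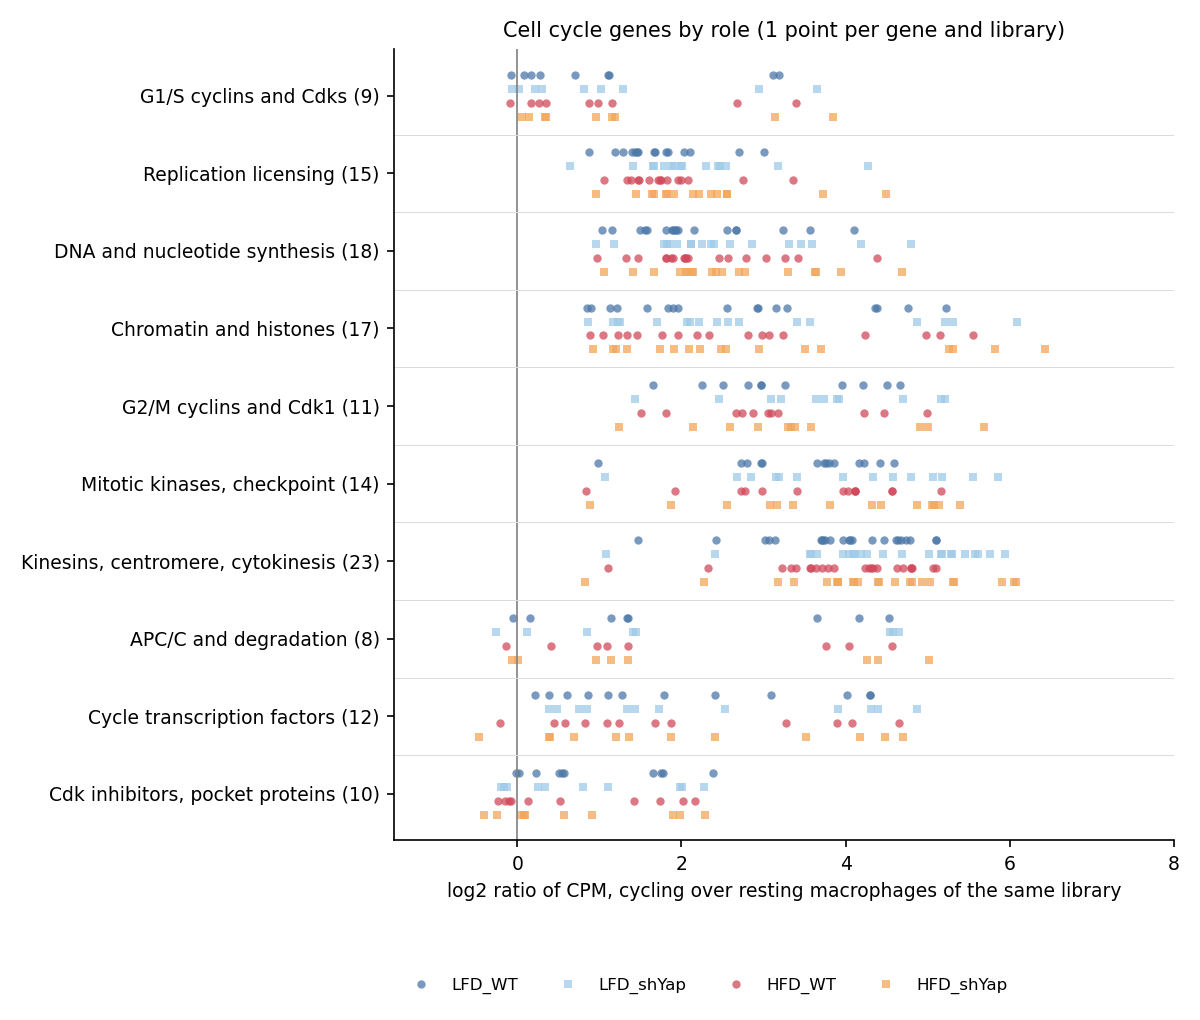
Log2 ratio of CPM, cycling over resting macrophages of the same library (x axis), for cell cycle genes grouped by role (y axis, number of genes in brackets). Each point is 1 gene in 1 library, with counts under 3 set to 3. Licensing, synthesis, chromatin and mitotic genes lie right of 0, and the D cyclins and Cdkn1a near 0.

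Outside the cell cycle lists, the 12 highest genes by the naming rule were Esco2, Aspm, Pbk, Hist1h1a, Neil3, Hist1h2ab, Knl1, Pclaf, Melk, Ska1, Ncapg and Cep55, at log2 fold changes of 4.52 to 5.71. Several are known to act in replication or mitosis, so they too are given without a test. Esco2, a cohesin acetyltransferase (chr14:65819038-65833994), stood at 40.5, 35.3, 28.9 and 31.9 CPM in cycling and 0.715, 0.33, 0.81 and 0.506 CPM in resting macrophages. Pclaf, a PCNA-binding factor, stood at 389.6, 319, 377 and 375 CPM against 18.9, 8.78, 16.1 and 9.47 CPM.

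Each cycling barcode, thinned to 5000 UMIs, was placed by whether its S phase or its G2/M list had more UMIs. S phase led in 19.8% of 882 (17.3 to 22.6), 19.6% of 342 (15.5 to 24.2), 22.1% of 992 (19.5 to 24.8), 26.1% of 483 (22.2 to 30.2) barcodes, with exact 95% intervals. The value was highest in the library labelled HFD_shYap, and its interval overlapped those of the other 3. The median barcode held 8 to 9 S phase and 25, 26.5, 24 and 22 G2/M UMIs, so that the shares are not times spent in a phase. Free RNA can enter these calls, and its part was not tested. Genes kept out of both lists followed the call. Mcm5, a helicase subunit, stood at 158, 161, 146 and 186 CPM in S-leading and 70.7, 57, 60.3 and 72.9 CPM in G2/M-leading barcodes. Plk1, the polo-like kinase of mitosis, stood at 3.43, 5.97, 6.39 and 4.76 CPM against 57.2, 57, 40.8 and 40.6 CPM. Lyz2, the lysozyme of macrophages, stood at 7874, 7970.1, 6322 and 6960.3 CPM against 6934, 5965, 5503 and 5446 CPM, higher in the S-leading barcodes of each library.

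Genes of macrophage function were on the whole lower in cycling than in resting macrophages, and these were tested, with the libraries as replicates. Across all genes 20.5% were called lower, and 11.3% under both scalings. Without barcodes that had UMIs of another lineage, 1417 genes were called higher and 1130 lower. Of the antigen presentation genes (MHC class II), 8 of 9 tested members fell, 7 of them also after scaling by total UMIs (median -0.60 on the log2 scale). H2-Ab1, a class II chain, stood at 334, 454, 1906 and 1081 CPM in cycling and 611, 802, 2922 and 1605 CPM in resting macrophages, lower in each library (-0.81 ± 0.06 (SE), adjusted p = 1.5e-07 in edgeR). Cd74, the invariant chain, stood at 1021, 1349, 4907 and 2957 CPM against 1663, 2246, 7167 and 4159 CPM (-0.72 ± 0.05 (SE), adjusted p = 3.0e-07 in edgeR). Both had higher levels in the high-fat libraries, and were lower in the cycling state on either diet. Ciita, the class II transactivator, fell as well (-0.60 ± 0.12 (SE), adjusted p = 0.002 in edgeR), but not among barcodes of 10000 to 40000 UMIs (-0.30, adjusted p = 0.13).

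Of the genes of recently recruited monocytes, 8 of 9 tested members fell, 6 of them also after scaling by total UMIs (median -0.92). Ly6c2, which marks inflammatory monocytes, stood at 11.6, 53, 15.6 and 18.9 CPM in cycling and 43.4, 101, 62.4 and 48 CPM in resting macrophages (-1.63 ± 0.14 (SE), adjusted p = 8.9e-07 in edgeR). Chil3, a chitinase-like protein of monocytes, stood at 93.9, 219, 70.9 and 18.4 CPM against 308, 465, 121 and 112 CPM (-1.57 ± 0.19 (SE), adjusted p = 2.3e-05 in edgeR). Among the 12 lowest genes by the naming rule were also the neutrophil genes S100a8, S100a9 and Retnlg. Among barcodes of 10000 to 40000 UMIs in both states, S100a9 was at -0.83, and S100a8 and Retnlg were no longer called, at -0.56 and -0.19. All 7 neutrophil markers were called lower in edgeR and 3 in that depth window, and their part in the monocyte genes was not tested. Apoc1, an apolipoprotein, was the lowest gene of all named, at 8.94, 37.4, 6.59 and 4.49 CPM against 29.4, 112, 18.1 and 51.6 CPM (-2.06 ± 0.21 (SE), adjusted p = 5.3e-06 in edgeR).

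Of the lipid-associated macrophage genes, 11 of 13 tested members fell, 8 of them also after scaling by total UMIs (median -0.39). Apoe, the apolipoprotein that carries cholesterol, stood at 28492, 32539, 19760 and 16666 CPM in cycling and 39454, 46927, 27931 and 22706 CPM in resting macrophages (-0.58 ± 0.05 (SE), adjusted p = 1.3e-06 in edgeR). Trem2, a lipid receptor, fell too (-0.23 ± 0.05 (SE), adjusted p = 0.0021 in edgeR). Of the macrophage identity genes, 10 of 14 tested members fell, 7 of them also after scaling by total UMIs (median -0.20). Csf1r fell slightly (-0.24 ± 0.04 (SE), adjusted p = 6.3e-04 in edgeR).

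All 12 immediate early genes, which respond fast to stimulation and to tissue dissociation, fell under both scalings (median -0.40). Fos stood at 777, 685, 554 and 591 CPM in cycling and 849, 713, 674 and 799 CPM in resting macrophages (-0.32 ± 0.05 (SE), adjusted p = 3.8e-04 in edgeR). Of the hypoxia and glycolysis genes 10 of 15 fell, 7 of them under both scalings, and of the growth factor genes 11 of 17, 10 under both. Among the resident scavenger genes 2 rose and 5 fell of 13, against 19.5% and 20.5% of all genes. Lyve1, a hyaluronan receptor of resident macrophages, stood at 168, 161, 17.2 and 67.3 CPM against 164, 114, 21.3 and 44.2 CPM and was not called (0.13 ± 0.11 (SE), adjusted p = 0.4 in edgeR).

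**Figure D3:**
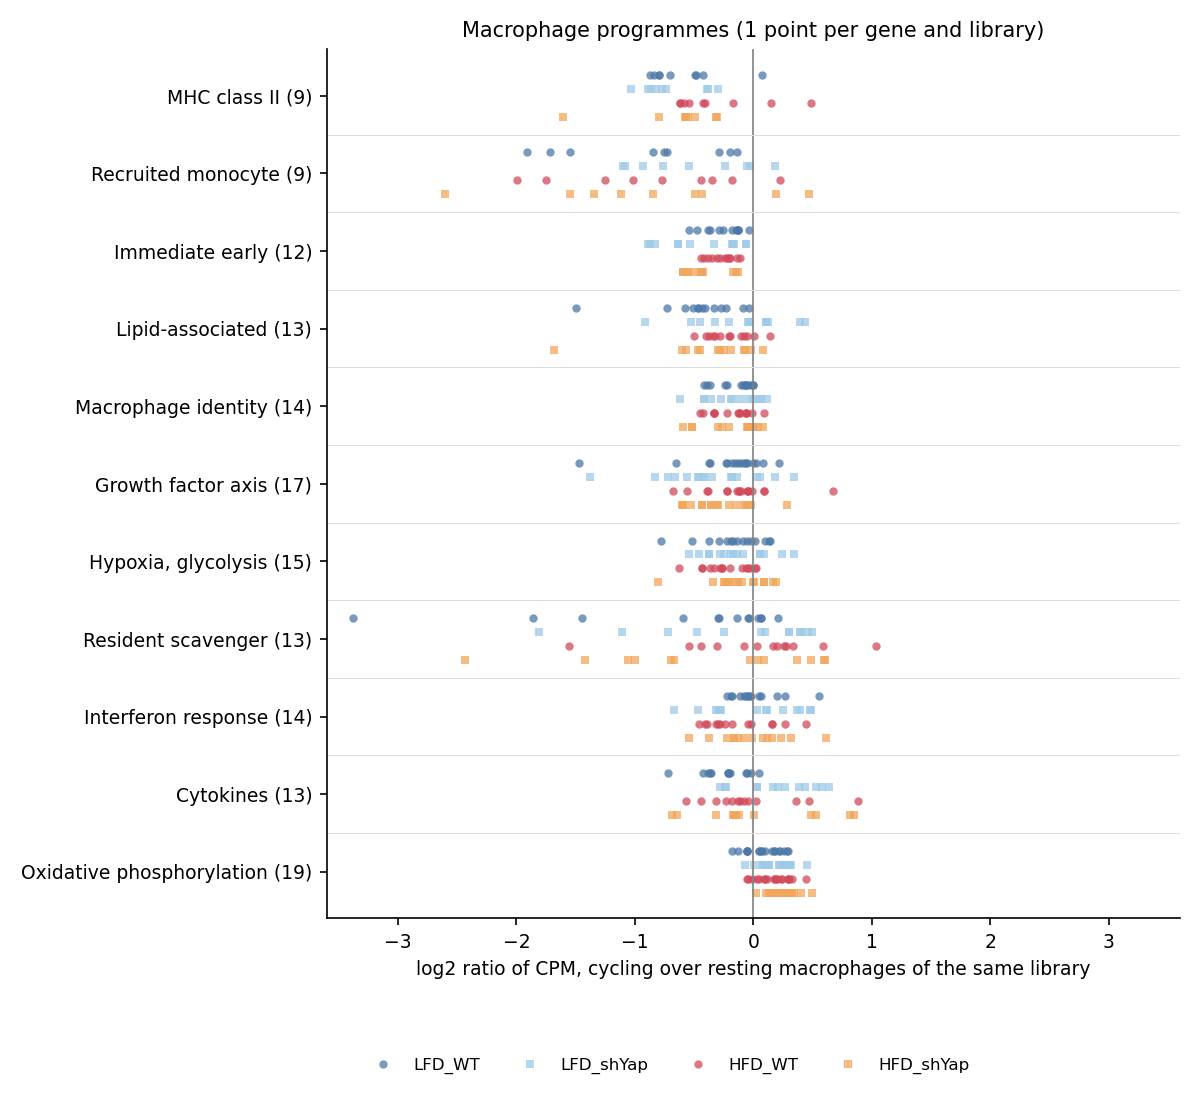
Log2 ratio of CPM, cycling over resting macrophages of the same library (x axis), for gene lists of macrophage function (y axis). Each point is 1 gene in 1 library, with counts under 3 set to 3. MHC class II, monocyte and immediate early genes lie mostly left of 0.

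In some lists more members rose than fell, by small amounts. Across all genes 19.5% were called higher and 20.5% lower. With scaling by total UMIs 3637 of 13132 were higher and 1484 lower. Among barcodes of 10000 to 40000 UMIs, the depth window, 2417 of 12421 were higher and 2563 lower. Of the oxidative phosphorylation genes 7 of 19 rose and 1 fell, against 13 and 0 with scaling by total UMIs. Cycs, cytochrome c, stood at 156, 129, 178 and 159.9 CPM in cycling and 134, 94.4, 131 and 113 CPM in resting macrophages (0.30 ± 0.06 (SE), adjusted p = 7.1e-04 in edgeR). Of the cholesterol and fatty acid synthesis genes 5 of 14 rose and 1 fell. With scaling by total UMIs 7 rose and 0 fell, and in the depth window 3 rose and 2 fell. Sqle, squalene epoxidase, stood at 6.84, 5.11, 10.9 and 9.69 CPM against 4.27, 2.51, 8.01 and 7.92 CPM (0.44 ± 0.11 (SE), adjusted p = 0.0066 in edgeR), and Fasn, fatty acid synthase, at 12.5, 12.5, 18.5 and 18.3 CPM against 10.9, 9.17, 12.5 and 11.9 CPM (0.37 ± 0.08 (SE), adjusted p = 0.0027 in edgeR). Of the 14 interferon response genes 1 rose and 8 fell in the depth window. Over all barcodes 2 of 14 rose and 6 fell (median -0.17). Cxcl10, an interferon-induced chemokine, was one of those that rose, from 124, 64.8, 129 and 73.6 CPM in resting to 181, 90.6, 175 and 86.7 CPM in cycling macrophages (0.33 ± 0.05 (SE), adjusted p = 2.2e-04 in edgeR).

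Levels were followed along the pair's own UMIs after thinning all macrophages to 5000 UMIs, as a description in each library. From 0 UMIs to 8 or more (84, 52, 144 and 55 barcodes), the MHC class II sum went from 4271, 5394, 17410.4 and 9764 to 1688, 2165, 10772 and 4109 CPM. The lipid-associated sum went from 48094, 55912, 35560 and 30799.9 to 28414, 36050, 23033 and 18756 CPM. The macrophage identity sum went from 23811, 22080.1, 22843 and 20549.5 to 16886, 16723, 17042 and 15993 CPM. All 3 were lower in the top bin of every library. Oxidative phosphorylation genes stood at 6992, 6040.1, 6675 and 5736 CPM with no UMI and 6814, 6035, 6965 and 6724 CPM with 8 or more. At 2 to 3 UMIs they stood at 7513, 6825, 7514 and 6614 CPM, above the level with no UMI in each library.

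**Figure D4:**
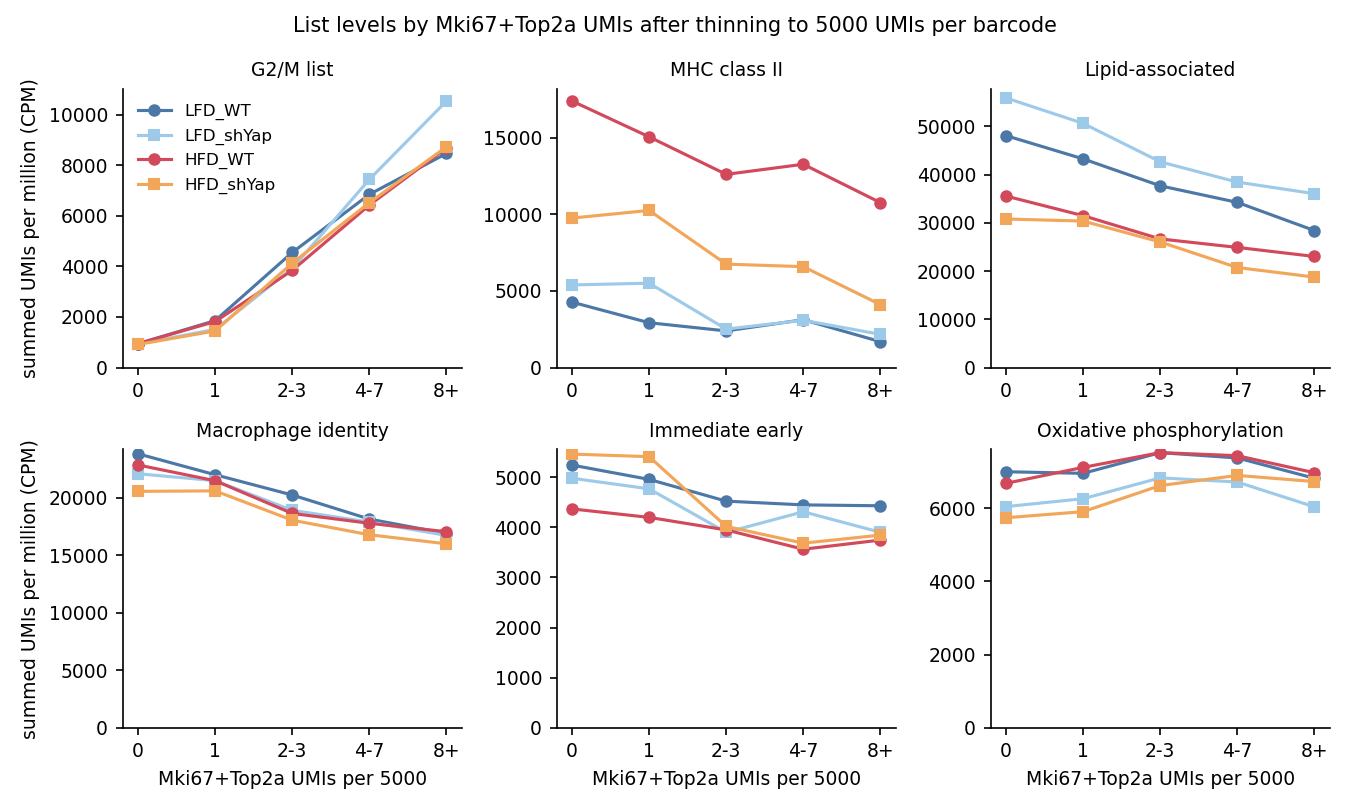
Summed CPM of 6 gene lists (y axes) against Mki67 and Top2a UMIs per barcode after thinning to 5000 UMIs (x axis, bins 0, 1, 2-3, 4-7 and 8+), 1 line for each library. The G2/M list climbs with the pair, and the MHC class II, lipid-associated and macrophage identity lists are lower in the last bin than in the first.

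Cycling was also compared between macrophages with and without a UMI of a state gene, in thinned barcodes and without a test. For Ly6c2 the cycling share was 7.51% of 253 barcodes with it against 14.1% of 4998 without in LFD_WT, a difference of -6.56 points (-9.38 to -2.52), and 7.14% of 322 barcodes with it against 16.4% of 4569 without in HFD_WT, a difference of -9.29 points (-11.88 to -5.79). In LFD_shYap the difference was -1.35 points (-4.18 to 3.13) and in HFD_shYap -2.96 points (-6.21 to 2.03), and both intervals spanned 0. For Folr2, the folate receptor of resident macrophages, the difference was 0.23 points (-1.63 to 2.11) in LFD_WT and -0.04 points (-2.49 to 2.61) in HFD_WT. In LFD_shYap it was 2.20 points (0.35 to 4.21) and in HFD_shYap 5.18 points (2.69 to 7.91). Other state genes went both ways. The difference was -2.03, -1.12, -10.96 (-14.41 to -2.20) and -4.99 points for Vsig4. It was -3.09 (-5.55 to -0.21), 0.87, -2.33 and -2.34 points for Cd163. For Lyve1 it was -3.25 (-5.16 to -1.23), 0.26, -0.01 and 3.26 points. For Marco it was 0.31, -2.70, -8.54 (-12.48 to -1.34) and -5.81 points. For Mrc1 it was 1.94, 1.61, 0.65 and 1.66 points. Ccr2 gave -2.29 (-4.21 to -0.27), 2.53 (0.46 to 4.90), -0.10 and -1.30 points, so its sign differed between libraries. Spp1 gave -4.59 (-6.98 to -2.35), 0.99, -1.42 and 0.38 points. H2-Ab1 gave -2.96 (-4.80 to -1.08), -1.80 (-3.53 to -0.08), 0.37 and -0.96 points. Intervals not printed here spanned 0. For Arg1, arginase, the difference was -1.91 points (-3.77 to -0.05), -0.06 points (-1.85 to 1.91), -1.81 points (-3.85 to 0.26) and -0.19 points (-2.24 to 1.87).

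Diet was tested within cycling macrophages by edgeR on the 4 summed libraries with tumour line as a second term, which leaves 1 residual degree of freedom. That fit called 150 genes, 1.27% of 11833, of which 94 (0.794%) were higher and 56 (0.473%) lower on the high-fat diet. Diet as the only term, with all 4 libraries, called 44. With 1 library left out no residual degree of freedom remains for both terms, so those fits also had diet alone, and called 57 without LFD_WT, 99 without LFD_shYap, 42 without HFD_WT and 146 without HFD_shYap. Dropping the library and dropping the line term cannot be told apart in them. With 1 library for each combination of diet and line, no combination had a replicate. The p-values rest on how far the 4 libraries depart from additive terms, moderated across genes, and not on a spread between replicates. The labels do not say how many animals a library holds. Cxcl9, an interferon-induced T cell chemokine, stood at 42, 34.6, 258 and 249.7 CPM (2.71 ± 0.18 (SE), adjusted p = 1.4e-09 in edgeR). Ccl5, another chemokine, stood at 39.7, 26, 145 and 95.8 CPM (1.85 ± 0.17 (SE), adjusted p = 2.6e-07 in edgeR), and Ndrg1, a hypoxia-induced gene, at 10.4, 10.9, 34.4 and 33.2 CPM (1.65 ± 0.17 (SE), adjusted p = 3.2e-06 in edgeR). Both high-fat libraries lay above both low-fat ones for all 3, and the calls held in each of the 4 fits with 1 library left out. So did those of C3, Dnase1l3 and Nos2, at 1.94, 2.68 and 3.24. With the diet of LFD_shYap taken from its treatment field, 11 genes were called and Cxcl9 was not (2.66, adjusted p = 0.54 in edgeR).

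Of the MHC class II genes 6 of 9 rose on the high-fat diet (median 1.67, against -0.01 over all genes). H2-Ab1 stood at 334, 454, 1906 and 1081 CPM (1.86 ± 0.26 (SE), adjusted p = 1.4e-04 in edgeR). With LFD_WT and the line term both dropped its call was lost (1.67, adjusted p = 0.075 in edgeR), as were those of H2-Aa, H2-Eb1, Cd74 and Ciita. With only the line term dropped it was 1.90, adjusted p = 0.029 in edgeR, and DESeq2 with both terms did not call it (1.85, adjusted p = 0.48). Of the hypoxia and glycolysis genes 6 of 15 rose, and of the interferon response genes 3 of 14.

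Of the resident scavenger genes 6 of 13 fell on the high-fat diet and 0 rose, against 0.473% of all genes called lower, and the list ran from -2.49 to 1.21 on the log2 scale. Cd163, a hemoglobin scavenger receptor, stood at 42.6, 49.3, 4.62 and 14.6 CPM (-2.49 ± 0.22 (SE), adjusted p = 2.6e-07 in edgeR) and kept its call in each fit with 1 library left out. Lyve1 stood at 168, 161, 17.2 and 67.3 CPM (-2.29 ± 0.28 (SE), adjusted p = 2.4e-05 in edgeR), and lost its call with LFD_WT and the line term dropped (-2.03, adjusted p = 0.17 in edgeR), with the line term alone dropped (-2.03, adjusted p = 0.16 in edgeR) and in DESeq2 (-2.30, adjusted p = 0.56). Vsig4, a complement receptor, stood at 26.9, 89.6, 6.16 and 22.2 CPM (-2.10 ± 0.17 (SE), adjusted p = 3.9e-08 in edgeR), so that the library LFD_WT lay close to HFD_shYap. Its log2 CPM ratio of high-fat over low-fat was -2.13 with WT and -2.01 with shYap tumours. Its call was lost with the line term dropped and all libraries kept (-2.11, adjusted p = 0.31 in edgeR). Of the inflammatory cytokine genes 6 of 13 fell.

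Resting macrophages of the same libraries, in which 0.488% of 13102 genes were called, 0.290% higher and 0.198% lower on the high-fat diet, gave log2 fold changes of 2.27 for Cxcl9 (edgeR adjusted p = 0.012), -2.19 for Cd163 (edgeR adjusted p = 0.012) and 1.57 for H2-Ab1 (edgeR adjusted p = 0.16). Whether diet acted differently in the 2 states was not tested. No member of the cell cycle lists was called for diet or for tumour line by edgeR in cycling macrophages, where 1.27% and 0.228% of all genes were called. Of all genes, 814 and 434 had an unadjusted p under 0.05 in edgeR. For diet the 23 kinesin, centromere and cytokinesis genes ran from -0.46 to -0.03. Their median was -0.31, against -0.01 over all genes. The medians of the licensing and of the DNA and nucleotide synthesis genes were 0.002 and 0.04. These list values were not tested. Every barcode was chosen on Mki67 and Top2a, so the lack of calls does not show that the cycle was alike across diets or lines. Markers of other cells moved with diet too. Hbb-bs, a hemoglobin chain of red cells, stood at 137, 682, 3.61 and 0.801 CPM, and 4 of 4 tested red cell genes fell on the high-fat diet. Their part in the diet results was not tested.

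**Figure D5:**
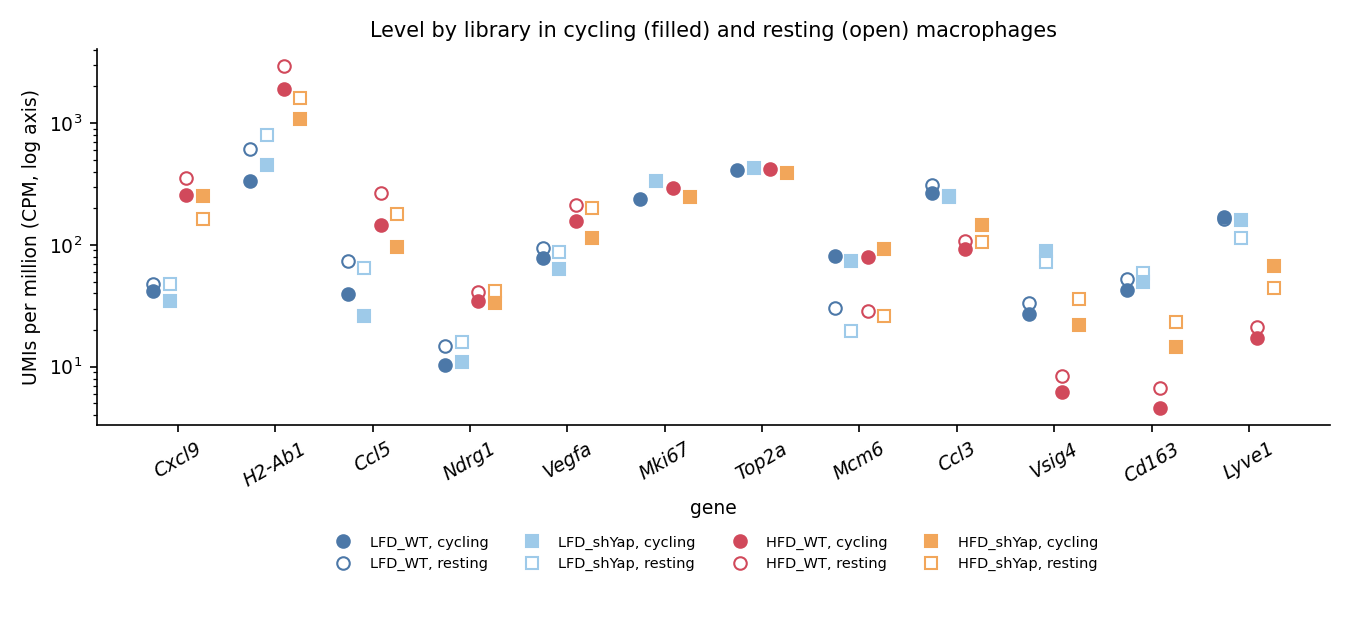
CPM (y axis, log scale) of 12 genes in the 4 libraries (x axis), in cycling (filled) and resting (open) macrophages, 1 point for each library and state. Mki67 and Top2a are 0 in resting macrophages by the rule and are not drawn there. Cxcl9 is higher and Cd163 lower in both high-fat libraries.

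The tumour line comparison called 27 genes, 0.228% of 11833, of which 12 (0.101%) were higher and 15 (0.127%) lower in the libraries labelled shYap. Markers of other cells were among the calls. Higher were 3 of 4 tested red cell genes. Lower were 2 of 4 B and plasma cell, 2 of 7 neutrophil and 1 of 10 T and NK cell genes. The part of such cells in the line results was not tested. Fkbp5 and Klf9, genes known to respond to glucocorticoids, were higher. Fkbp5 stood at 77.3, 180.5, 52.8 and 121 CPM (1.21 ± 0.16 (SE), adjusted p = 3.3e-04 in edgeR) and Klf9 at 23.3, 51.2, 16.5 and 32.8 CPM (1.07 ± 0.16 (SE), adjusted p = 0.0014 in edgeR), with both labelled libraries above both WT ones. Cxcl10 stood at 181, 90.6, 175 and 86.7 CPM (-1.01 ± 0.17 (SE), adjusted p = 0.0033 in edgeR), lower in both labelled libraries. With the diet term dropped and all 4 libraries kept, edgeR called 0 genes, 269 having an unadjusted p under 0.05, and DESeq2 with both terms called 12. The fits with 1 library left out also lack the diet term, called 4, 4, 5 and 0 genes without LFD_WT, LFD_shYap, HFD_WT and HFD_shYap, and did not call these 3.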

How the data were processed

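Single-cell RNA-seq of CD45-selected cells from liver tumours was deposited by the authors as 4 matrices of unnormalized UMI counts, barcode by gene. The file headers name Cell Ranger 6.0.0, while the submitters' processing notes list Cell Ranger 4.0.0, STAR 2.5.1 and mm10. The members and gene lists were chosen with earlier results of these data known.

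Barcodes were gated in Python 3.11.15 with scipy 1.17.1, doublets were scored with scanpy 1.11.5, and UMIs were summed per library and state. Of 32285 genes, 32235 matched GENCODE vM21 by ID. The sums were tested in R 4.3.3 with edgeR 4.0.16 (quasi-likelihood, TMM scaling, filterByExpr, Benjamini-Hochberg adjustment over all genes fitted, threshold 0.05), after tests on simulated data. Cycling against resting used 8 sums with library as a block, since both states come from each library. Diet and line used 4 sums in 1 additive fit. Standard errors were taken from the fold change and its F statistic. CPM uses total UMIs, and log2 ratios within a library set counts under 3 to 3. Thinning drew 5000 UMIs per barcode with seed 1.

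Named genes were the gate genes, members of the lists as examples, and genes called by edgeR in 1 direction in all 4 libraries with 20 CPM or more in the higher state, the 12 highest and 12 lowest between states and up to 6 each way for diet and line. Ribosomal, mitochondrial, immunoglobulin, T cell receptor, hemoglobin, sex-linked and unnamed genes were left out of those rankings. The 12 highest also leave out the cell cycle lists. DESeq2 1.42.0, other scalings, filters, gates and left-out libraries were alternatives. The Yap1 check and its barcode gate were added after seeing the data.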

Additional observations from a re-analysis of the deposited data

Results flagged for a closer look

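The gate left out macrophages with 3 or more Jaml UMIs, and cycling UMIs were found there as well, in data that no comparison above uses. Of these, 28.1% of 153 in LFD_WT (exact 95% interval 21.1 to 35.9), 13.2% of 1789 in LFD_shYap (exact 95% interval 11.7 to 14.9), 24% of 578 in HFD_WT (exact 95% interval 20.6 to 27.7), 19.2% of 495 in HFD_shYap (exact 95% interval 15.8 to 22.9) had 3 or more Mki67 and Top2a UMIs. Their median depth was 18322, 14929, 20792 and 19364 UMIs, above that of all macrophages. With them kept in, the cycling shares were 11.3, 8.81, 17 and 13.2%.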

How the results depend on the processing

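Cycling against resting called 5251 genes with the replicate block of library, and 1850 with no replicate block. It called 2547 without barcodes with other-lineage UMIs. Leaving out 1 library gave 4124 to 4612.

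The diet count of 150 became 282 with no expression filter, 54 with DESeq2, 44 with diet as the only term and 11 with the diet of LFD_shYap taken from the treatment field. It was 55 with no Jaml gate, 272 at 5 or more UMIs of the pair and 80 without top doublet scores. Leaving out 1 library, with diet then the only term, gave 42 to 146.

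The tumour line count of 27 became 42 with RLE size factors, 91 with no expression filter, 12 with DESeq2, 4 with the treatment field, 9 with no Jaml gate, 67 at 5 or more UMIs, 13 without top doublet scores and 43 with only the Xist barcodes of HFD_shYap. With line as the only term edgeR called 0, where 269 genes had an unadjusted p under 0.05 and DESeq2 with both terms called 12. Leaving out 1 library, with line then the only term, gave 0 to 5. The line difference of Gzma was -2.45, and -0.06 without top doublet scores. It was reversed to 0.0555 with the treatment field. In fits with line as the only term it was reversed to 0.17 without LFD_WT, and was -8.18 without LFD_shYap. In these left-out fits the library and the dropped term changed together. The cause was not tested for any of these.

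The cycling shares, in the library order above, were 8.63, 5.51, 12.7 and 9.82% at 5 or more UMIs, 10.4, 6.87, 14.5 and 11.4% at a C1q share of 0.25%, 12.7, 8.06, 18.5 and 13.9% at 1% and 10.0, 7.06, 15.8 and 12.2% without top doublet scores. They were 6.63, 4.73, 8.94 and 6.13% without other-lineage UMIs and 11.3, 8.81, 17 and 13.2% with no Jaml gate. Thinned to 5000 UMIs they were 24.9, 17.3, 28.1 and 20.2% at 1 UMI or more, 13.7, 7.59, 15.8 and 10.3% at 2 and 9.69, 5.5, 11.9 and 7.26% at 3. The signs of the 4 differences between libraries were the same in each of these. Both depth and the number of libraries limit the comparisons of diet and line.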

Other observations

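Red cell genes in cycling macrophages were highest in LFD_shYap. The 5 red cell genes summed to 249.5, 1412, 5.39 and 1.12 CPM in cycling and 476, 28.8, 208 and 1.15 CPM in resting macrophages, and of the 4 libraries only LFD_shYap had a cycling sum above the resting one. The 10 tumour-line genes likewise stood at 43 CPM in cycling macrophages of LFD_shYap against 17.4 CPM in resting ones.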
